A study of Mus musculus with 2 samples.

Results

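Interferon-stimulated genes were followed across the cell types of the mouse cornea and limbus, in 2 libraries, one wild type and one labelled Pax6 +/-. A list of 48 such genes was drawn up by name, with earlier results of these data known. Counts of members beside the share of all genes are therefore descriptions and no test of the list. Of the 48, 47 had a row among the 32285 genes of both matrices, while Mx1 was not analysed here. The tissue was the ocular anterior segment without lens, retina and iris and with most of the conjunctiva cut away, digested to single cells and profiled on the 10x Genomics system. The study set 2 wild-type mice beside 2 Pax6 heterozygous mice, but each genotype had 1 library, and whether its mice were pooled is not stated. No treatment was named for either group, and age, sex, strain and the Pax6 allele were not given.

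Interferons are cytokines that switch on a shared programme of antiviral and immune genes. Type I interferons signal through a receptor pair to a complex that holds Stat2 and Irf9 and binds the interferon-stimulated response element, while type II interferon (interferon gamma) acts through gamma-activated sites and is the stronger inducer of the guanylate-binding proteins and the immunity-related GTPases. Many members answer to both, and some are expressed at rest in barrier epithelia, where the Ifitm proteins restrict the entry of viruses. The members were therefore read as 3 groups by their stronger known inducer: 20 mainly type I induced genes, 10 strongly type II induced genes and 17 others.

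The sequences in front of some members show the letters through which this programme is read, and they are given for some genes that hold them. Promoter windows of 300 bases, from 250 before to 50 after the annotated start, were found for 37 of the 48 members in RefSeq (GRCm38.p6). The response-element letters GAAANNGAAA, searched on both strands, occurred in 21 of the 37 genes (56.8%) and in 3.99% of 27025 genes with a window. The gamma-activated letters TTCNNNGAA, which read the same on both strands, occurred in 11 of the 37 (29.7%) and in 9.55% of all genes. Among the type I group the response-element letters stood in 8 of 15 windows and the gamma-activated letters in 2 of 15, against 7 of 9 and 4 of 9 in the type II group. The lines that follow give 150 bases that end at or shortly before the annotated start, written 5′ to 3′ on the strand of the gene, for Isg15 (chr4:156200819-156200968, minus strand) with 3 overlapping response-element matches, Ifit1 (chr19:34640721-34640870, plus strand) with 2, Gbp2b (chr3:142594697-142594846, plus strand) with 1, Gbp7 (chr3:142530186-142530335, plus strand) with 1 and with 2 gamma-activated matches before it, and Irf1 (chr11:53769864-53770013, plus strand) with 1 gamma-activated match. Capitals mark the matches, and TTTCNNTTTC is the response element read on the other strand.
Isg15: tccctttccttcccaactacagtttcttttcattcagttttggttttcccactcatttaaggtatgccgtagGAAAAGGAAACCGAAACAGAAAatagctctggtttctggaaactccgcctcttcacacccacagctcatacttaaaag
Ifit1: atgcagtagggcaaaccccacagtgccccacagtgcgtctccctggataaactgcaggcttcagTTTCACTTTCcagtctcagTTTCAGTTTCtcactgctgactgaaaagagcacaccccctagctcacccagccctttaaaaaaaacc
Gbp2b: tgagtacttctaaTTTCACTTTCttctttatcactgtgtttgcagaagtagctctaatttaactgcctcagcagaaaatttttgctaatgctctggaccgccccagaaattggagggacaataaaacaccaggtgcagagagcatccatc
Gbp7: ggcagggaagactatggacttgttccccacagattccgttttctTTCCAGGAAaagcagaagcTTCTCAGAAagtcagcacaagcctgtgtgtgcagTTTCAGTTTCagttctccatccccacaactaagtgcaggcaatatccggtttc
Irf1: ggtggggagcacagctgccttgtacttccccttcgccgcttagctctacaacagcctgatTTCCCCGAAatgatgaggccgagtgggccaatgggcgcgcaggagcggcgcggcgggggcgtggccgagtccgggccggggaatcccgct
The printed stretches all hold a match. The windows of Ifi44, Ifitm1 and Oasl2 held neither kind of letters, and Ifi27l2a and Rtp4 had no window. A match describes the letters only, and no binding was measured.

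After filtering, 10154 wild-type cells and 9542 cells labelled Pax6 +/- were kept, with median depths of 10218 and 12537 UMIs (unique molecular identifiers, each 1 counted RNA molecule). The libraries shared 40 cell barcodes. Pax6 stood at 372 CPM (UMIs per 1000000 of the class total, mitochondrial genes left out) in wild-type epithelial cells and at 743 CPM in those of the library labelled Pax6 +/-. The allele is not given, so these counts do not check the label, and every direction below is a direction between labelled libraries. Cells with Xist and without Y-linked UMIs made up 94.6% of the wild-type library and 46.2% of the other, and 3759 cells (39.4%) of the library labelled Pax6 +/- had Y-linked UMIs and no Xist, against 0 in the wild-type library, so the libraries also differ in the sex of their mice. With 1 library per genotype there is no test: "higher" and "lower" describe these libraries, and every interval is an exact 95% interval that covers counting error only.

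Cells were sorted by summed markers per 10000 UMIs. Epithelial cells, with Krt5, Krt14 and Krt15 at 30 or more, numbered 8552 (wild type) and 6796 (labelled Pax6 +/-), and the 9 epithelial markers were detected in both. They were divided in order into cells positive for Gpha2, a marker of limbal epithelium (274 and 1718), cells positive for Krt4, a keratin of conjunctival epithelium (54 and 1234), cells high in Krt12, the corneal keratin (7892 and 379), and the rest, low in Krt12 (332 and 3465). Below the keratin threshold stood keratocytes, the fibroblasts of the corneal stroma (654 and 927), vessel cells (139 and 943, of blood vessels, lymphatic vessels and mural cells), glial cells (68 and 241) and immune cells (34 and 105). Every marker of each class was detected in it in both libraries. The epithelial states were not matched between the libraries. Krt12 stood at 6514 (wild type) and 330 CPM in Krt12-low, 7099 and 138 CPM in Gpha2-positive and 8440 and 536 CPM in Krt4-positive cells. Median depths in Krt12-low cells were 4440 and 14022 UMIs. Ratios by state are thus not between like cells. Krt12 UMIs also appeared outside the epithelium of the wild-type library, at 986 CPM in keratocytes and 3018 CPM in immune cells against 29618 CPM in epithelial cells, and the part of member UMIs that is such free RNA was not tested.

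In epithelial cells most members stood higher in the library labelled Pax6 +/-. A member was counted where it reached 20 CPM in one library or the other, which 35 did. Of these, 20 were higher by 2-fold or more and 2 lower by 2-fold or more, where 13.2% of 7092 genes at the same level were 2-fold higher and 6.44% were 2-fold lower. The median log2 ratio was 1.20 for the 35 members and 0.17 for all genes. Of the members with a promoter window, 10 of 15 with the response-element letters and 7 of 14 without them were among those 2-fold higher. The 47 members summed to 2084 CPM in wild-type cells and to 6112 CPM in cells labelled Pax6 +/-, a ratio of 2.93 (2.92 to 2.95). With the 4 epithelial states, described after this, weighted equally the ratio was 1.68, a setting chosen after seeing the data. TMM scaling lowered every epithelial log2 ratio by 0.33 and left 16 of the 35 at 2-fold, without Isg15, Herc6, Gbp2 and Samhd1. The share of all genes at 2-fold under this scaling was not counted. The mix of cell states differs between the libraries, so the ratio over all epithelial cells joins a change within cells and a change in their proportions, which the values by cell state separate in part.

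**Figure D1:**
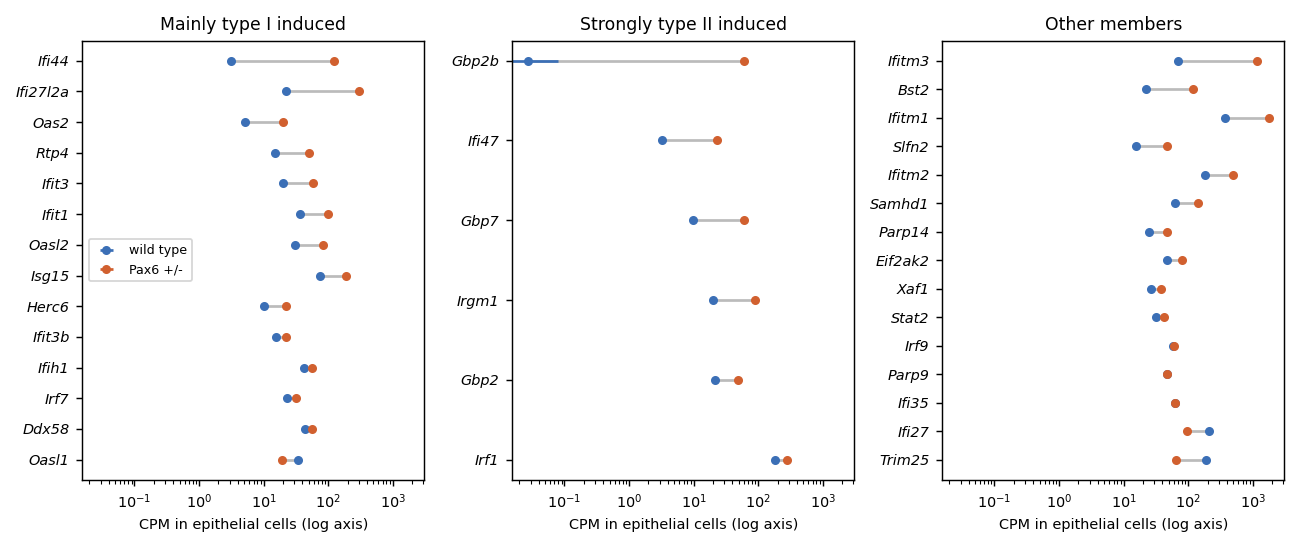
Level of each of the 35 members that reached 20 CPM in epithelial cells, in CPM on a log axis, with exact 95% Poisson intervals (the interval of Gbp2b in wild-type cells runs off the axis). Points of the library labelled Pax6 +/- lie to the right of the wild-type points for 31 members, and furthest for Gbp2b, Ifi44 and Ifitm3.

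The Ifitm genes, which encode membrane proteins that block viral fusion, were a large part of the sum. Ifitm1 (GRCm38 chromosome 7, 140967221 to 140969825) stood at 378 CPM in wild-type and 1782 CPM in labelled Pax6 +/- epithelium. For Ifitm3 the values were 69.2 and 1185 CPM, a ratio of 17.1, and for Ifitm2 180 and 495 CPM. Together they went from 627 to 3463 CPM, a ratio of 5.52 (5.48 to 5.57), and the other 44 members from 1457 to 2650 CPM, a ratio of 1.82 (1.81 to 1.83). These 3 genes lie in a cluster on chromosome 7 and are alike in sequence, so reads could have been divided among them.

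Of the 20 type I members, 14 could be counted in epithelium, 9 were at least 2-fold higher and none 2-fold lower, with a median log2 ratio of 1.38. Ifi44, an interferon-induced gene of the Ifi44 family, had 352 UMIs (3.16 CPM) in wild-type cells and 12832 UMIs (124 CPM) in the others, a ratio of 39.2 (35.3 to 43.7). Ifi27l2a followed with 21.9 and 301 CPM and a ratio of 13.8 (13.2 to 14.4). The classical antiviral members moved less than these, although all in the same direction: Isg15, a ubiquitin-like modifier, stood at 74.5 and 186 CPM (2.50-fold), Ifit1, which binds foreign RNA caps, at 36.4 and 98.6 CPM (2.71-fold), Ifit3 at 20.1 and 58.3 CPM (2.90-fold) and Oasl2 at 30.3 and 82.1 CPM (2.71-fold). Rtp4 (14.9 and 49.8 CPM), Oas2, a synthetase that activates RNase L (5.12 and 20.1 CPM), and Herc6, the ligase that attaches Isg15 (10.2 and 22.3 CPM), were the remaining type I members past 2-fold. With the keratin threshold of the epithelial class raised to 100 the log2 ratios of Isg15 (0.54), Ifit1 (0.81), Ifit3 (0.50) and Oasl2 (0.79) fell under 2-fold.

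Over all epithelial cells the RNA sensors and regulators of the type I group differed by less than 2-fold. Ifih1 (MDA5) stood at 41.9 and 56.3 CPM, Ddx58 (RIG-I) at 44.4 and 56.5 CPM (a ratio of 1.27, below 1 under DESeq2 size factors), and Irf7, the factor that amplifies type I interferon, at 23.3 and 31.2 CPM. By state, Irf7 was at least 2-fold higher in 2 of the 4, Ifih1 in 1 and Ddx58 in 0. At the keratin threshold of 100 the log2 ratios of Irf7, Ifit3b and Ddx58 turned to -0.43, -0.45 and -0.06. That of Irf7 was -0.15 in cells with Y-linked UMIs only. Ifit3b, a close copy of Ifit3 whose reads may be divided with it, stood at 15.5 and 22.2 CPM. Oasl1 went the other way, from 34.1 to 19.4 CPM, a ratio of 0.57 (0.54 to 0.60). Oasl1 is a repressor of Irf7 translation, and it was the lone type I member of the 14 below a ratio of 1.

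The type II group held the steepest single ratio. Gbp2b, a guanylate-binding protein, had 3 UMIs in the 8552 wild-type epithelial cells and 6301 UMIs in the 6796 cells labelled Pax6 +/-, that is 0.027 and 60.9 CPM and a ratio of 2259 (773 to 10959). Gbp2b was at 0 UMIs in the wild-type keratocytes, vessel, glial and immune cells too. Wild-type blood-vessel cells had Gbp2 at 186 CPM and Gbp7 at 152 CPM. The strain of the mice is not given, and whether strain sets the level of Gbp2b was not tested. Its neighbour Gbp2 (GRCm38 chromosome 3, 142620602 to 142638008; Gbp2b at 142594847 to 142619179) was counted in both libraries, at 21.5 and 48.3 CPM, and how reads were divided between these similar genes was not tested.

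Gbp7 (9.85 and 60.9 CPM, 6.18-fold), Ifi47 (3.21 and 22.9 CPM, 7.13-fold) and Irgm1 (19.8 and 90.1 CPM, 4.55-fold), GTPases that act against intracellular microbes, were likewise higher. Irf1, the transcription factor that relays interferon gamma, was already abundant at 182 and 278 CPM, with a ratio of 1.53 (1.503 to 1.56). In all 6 type II members could be counted, 5 were past 2-fold, and their median log2 ratio was 2.41, which is 1.03 above that of the type I group. That order did not hold in every epithelial state: the difference of medians was -0.081 in Krt12-high cells and -0.51 in Gpha2-positive cells, against 0.62 in Krt4-positive and 1.25 in Krt12-low cells. By summed UMIs the order was the opposite, since the type I group went from 407 to 1180 CPM (2.90-fold) and the type II group from 245 to 593 CPM (2.42-fold).

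Among the 15 countable members outside both groups, 6 were past 2-fold upward: the 3 Ifitm genes, Bst2 or tetherin, which holds budding virus at the membrane (22.1 and 120 CPM, 5.42-fold), Slfn2 (15.3 and 46.6 CPM) and Samhd1, which depletes nucleotides needed for viral replication (62.2 and 143 CPM). Parp14 (24.4 and 47.7 CPM), Eif2ak2 or PKR (47.6 and 81.6 CPM), Xaf1 (26.3 and 38.5 CPM) and Stat2 (32.1 and 42.3 CPM) lay between 1.3-fold and 2-fold. Irf9 (58.9 and 60.3 CPM), Parp9 (46.5 and 46.9 CPM) and Ifi35 (62.4 and 62.2 CPM) had ratios of 1.02, 1.01 and 1.00, and under TMM scaling all 3 lay below 1. Irf9 and Stat2, which carry the type I signal to DNA, thus had smaller ratios than the 20 members past 2-fold.

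Trim25, the ubiquitin ligase that activates RIG-I, was lower, at 192 and 64.7 CPM, a ratio of 0.34 (0.33 to 0.35). Ifi27 was lower too, at 210 and 96.3 CPM, a ratio of 0.46 (0.45 to 0.47), although its neighbour on chromosome 12, Ifi27l2a, was 13.8-fold higher. Both genes were below 1 in each of the 4 epithelial states. The 12 members under 20 CPM in epithelium of both libraries ranged from 0.21 to 10.2 CPM in wild-type and from 1.37 to 19.95 CPM in labelled Pax6 +/- epithelium, and the ratio was above 1 for all 12.

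Cells were compared at a fixed depth, since the libraries differed in it. Each epithelial cell with at least 5000 UMIs was thinned to 5000, which left out 1608 wild-type and 858 labelled Pax6 +/- cells. The median cell then carried 8 UMIs from 5 members in the wild-type library and 24 UMIs from 9 members in the other; before thinning it showed 8 and 15 members. Cells with 3 or more type I members made up 16.1% and 50.5%, and cells with 3 or more type II members 1.99% and 19.3%. Both kinds were seen in the same cell in 0.936% and 15.7% of cells. Many members answer to both interferons, so this does not show 2 separate programmes in a cell. Across cells, the UMIs of the type I and type II groups had a Pearson r of 0.15 (6944 wild-type cells) and 0.32 (5938 cells labelled Pax6 +/-), given as a description of cells that share a library.

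The shares of cells with at least 1 UMI moved the same way as the CPM for the steep members. After thinning, Ifi44 was found in 1.18% (0.94 to 1.46) of wild-type cells and 34.4% (33.1 to 35.6) of cells labelled Pax6 +/-, and Ifitm3 in 23.8% (22.8 to 24.8) and 93.2% (92.6 to 93.9), with Clopper-Pearson intervals. Gbp2b was found in 0 of 6944 thinned wild-type cells, with an exact upper limit of 0.0531%. It was found in 18.2% (17.2 to 19.2) of 5938 cells labelled Pax6 +/-. Over all 8552 and 6796 epithelial cells, without thinning, the shares were 2.86% and 51.5% for Ifi44 and 35.2% and 93.6% for Ifitm3. For Gbp2b they were 0.0351% and 32.2%. These shares also take in the shallower cells that thinning left out. Ifitm3 was thus seen in most cells labelled Pax6 +/-, whereas Ifi44 and Gbp2b were seen in a part of them at this depth. No cell class that should lack these genes was at hand to set their background.

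Without thinning, the summed members had a median of 14.9 per 10000 UMIs in wild-type and 46.9 in labelled Pax6 +/- epithelial cells. Of the latter, 75.2% lay above the 90th percentile of wild-type cells (29.0 per 10000), and 42.2% did so when the Ifitm genes were left out. The 10% of cells with the most member UMIs held 44.5% of them for wild type and 36.4% for the other library, while for the type II group the shares were 44.02% and 48.6%.

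**Figure D2:**
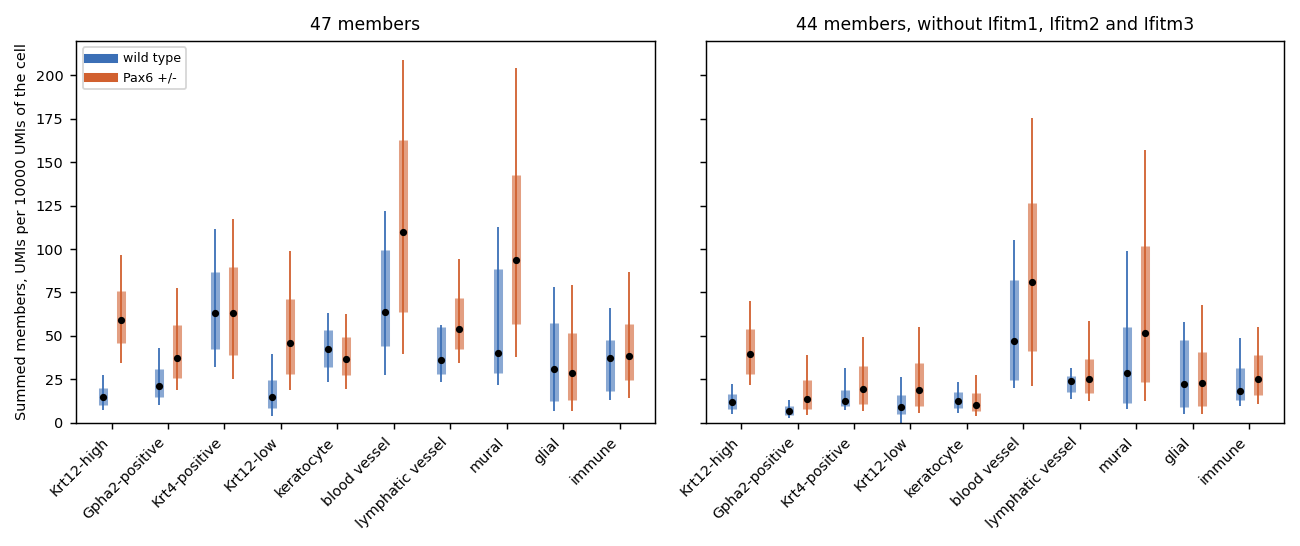
Summed members per 10000 UMIs of each cell, by cell class and library, for 47 members and for 44 members without the Ifitm genes. Points are medians over cells, thick bars the 25th to 75th and thin lines the 10th to 90th percentiles; cells are not replicates. Krt12-high cells separate most (medians 14.6 and 58.9), Krt4-positive cells overlap (63.4 and 63.0), and keratocytes labelled Pax6 +/- lie slightly lower (42.6 and 36.7).

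Within the epithelium the states differed in which members stood apart. In Krt12-high cells 28 of 38 countable members were at least 2-fold higher, where 8.47% of all genes were, and Ifi27 was 2-fold lower, where 5.47% were. The type I sum there went from 414 to 2857 CPM, a ratio of 6.91 (6.79 to 7.03), against 1.95 (1.87 to 2.02) for the type II sum. Of the cells labelled Pax6 +/- in this state 292 had Xist only and a type I sum of 3175 CPM, and 49 had Y-linked UMIs only and 1660 CPM, which is a ratio of 4.01 (3.82 to 4.21) to wild type. In these cells Isg15 stood at 75.6 and 506 CPM, Ifi27l2a at 22.4 and 798 CPM, Bst2 at 22.7 and 249 CPM and Ifit3 at 20.2 and 215 CPM. Irf1 was level there, at 183 and 184 CPM. The corneal-type cells, which were 92.3% of wild-type and 5.58% of labelled Pax6 +/- epithelium, thus had the highest type I sum of the 4 states in the library labelled Pax6 +/-, while their wild-type sum lay between those of the other states.

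In Gpha2-positive cells 15 of 29 members were 2-fold higher, beside 7.05% of all genes, and 0 were 2-fold lower, beside 4.63%. The type I sum was lowest of all states in wild-type cells, at 143 CPM, and reached 815 CPM, a ratio of 5.69 (5.15 to 6.29). Ifit1 stood at 6.01 and 66.6 CPM, Oasl2 at 8.14 and 71.1 CPM and Rtp4 at 1.42 and 36.2 CPM. The Ifitm sum was already high in wild-type Gpha2-positive cells, at 1816 CPM, and 2704 CPM in the others, and Ifitm1 was lower, at 940 and 744 CPM. Limbal-type cells thus differed in the type I sum more than in the Ifitm sum, although Ifitm3 alone was at least 2-fold higher there.

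In Krt4-positive cells 18 of 35 members were 2-fold higher, where 20.1% of all genes were, and Trim25 was 2-fold lower, where 4.66% were. In Krt12-low cells 18 of 35 were 2-fold higher, where 9.25% were, and Trim25 and Oasl1 (22.7 and 4.81 CPM) were 2-fold lower, where 8.32% were. The 54 wild-type Krt4-positive cells had 5578 CPM of the Ifitm genes, nearly all Ifitm1 (5425 CPM), and the 1234 cells labelled Pax6 +/- had 5030 CPM, with Ifitm1 at 3932 CPM and Ifitm3 at 616 CPM against 31.8 CPM. The total over all members was then almost equal, at 7259 and 7654 CPM, while the type I sum was 2.51-fold (2.32 to 2.72) higher. Members at least 2-fold higher in each of the 4 states were 11 of the 29 that could be counted in all, where 2.26% of 5664 genes were: Ifit1, Oasl2, Ifi27l2a, Ifi44, Rtp4, Gbp2b, Gbp7, Irgm1, Ifitm3, Bst2 and Xaf1.

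**Figure D3:**
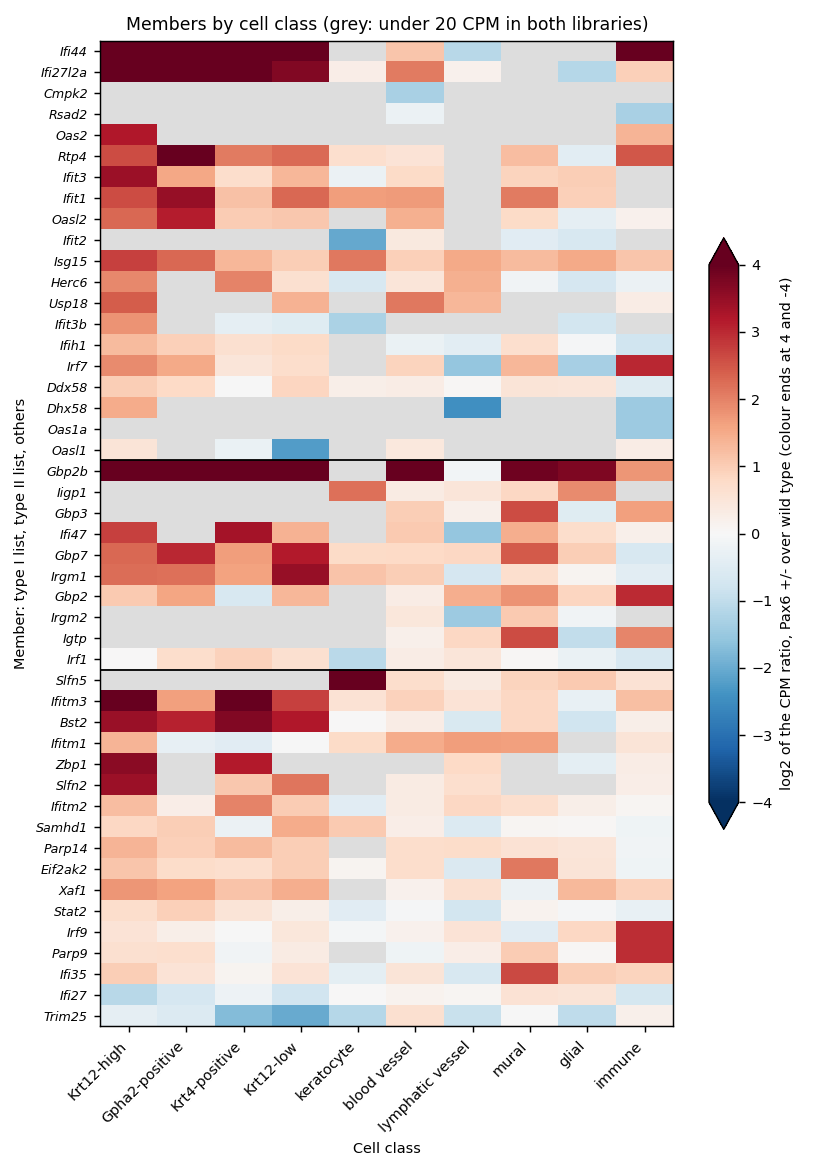
log2 of the CPM ratio (labelled Pax6 +/- over wild type) of each of the 47 members in 10 cell classes, with the type I group above the first line, the type II group between the lines and the other members below. Grey squares are under 20 CPM in both libraries, and squares of members at 0 in 1 library show a bound. The 4 epithelial columns on the left hold most of the dark red, the keratocyte column has 25 countable members of which 6 are 2-fold higher, and Isg15 is the only one of 18 members countable in all 5 broad classes to pass 2-fold in each.

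Binning by marker level separated the Ifitm sum from the type I sum. The 3 Ifitm genes were not binned singly, and they differed by state. Ifitm1, a large part of the sum, had a ratio above 1 in 1 of the 4 states. Ifitm2 was at least 2-fold higher in 3 states and Ifitm3 in all 4. Among cells with under 10 Krt12 UMIs per 10000, 124 wild-type cells had 3483 CPM and 6166 cells labelled Pax6 +/- had 3553 CPM of the 3 Ifitm genes, a ratio of 1.02 (0.99 to 1.05). In the same cells the type I sum was 187 and 1016 CPM, a ratio of 5.43 (4.81 to 6.16), and the type II sum was 289 and 601 CPM, a ratio of 2.08 (1.88 to 2.30). At 200 or more Krt12 UMIs per 10000 the Ifitm genes stood at 495 CPM in 5740 wild-type cells and 2179 CPM in 194 cells labelled Pax6 +/-, and the type I sum at 447 and 3804 CPM. The Ifitm sum was thus lower at high than at low Krt12 in both libraries, by more in the wild-type cells, while the type I ratio was between 5.17 and 8.90 in every one of the 5 Krt12 bins.

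Gpha2 and Krt4 gave further gradients. From cells under 1 to cells at 20 or more Gpha2 UMIs per 10000, the type I sum went from 431 to 118 CPM in wild-type and from 1389 to 606 CPM in labelled Pax6 +/- cells, so it was lower in the most Gpha2-rich cells of both. Over the same bins the Ifitm sum went up in wild-type cells (570 to 2109 CPM) and down in the others (3922 to 2572 CPM). With Krt4 it went up in both libraries, from 488 to 5796 CPM and from 2636 to 5846 CPM, and ended level, with a ratio of 1.01 (0.98 to 1.04) at 30 or more Krt4 UMIs per 10000.

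**Figure D4:**
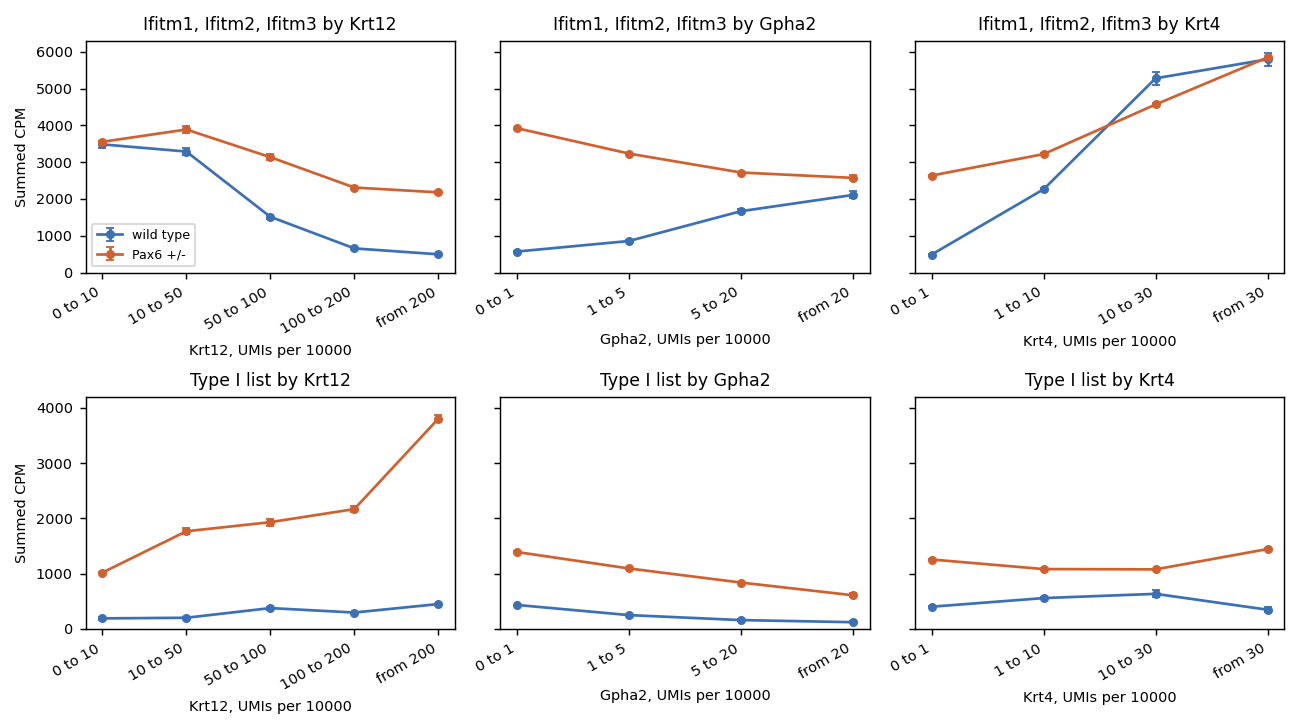
Summed CPM of the 3 Ifitm genes (upper row) and of the 20 type I members (lower row) in epithelial cells binned by Krt12, Gpha2 or Krt4 UMIs per 10000, for each library, with exact 95% Poisson intervals. At the lowest Krt12 level the Ifitm points of the libraries meet (3483 and 3553 CPM) while the type I points stay apart (187 and 1016 CPM).

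The keratin threshold mattered for the wild-type epithelium, where 1676 cells lay near it. With the keratin sum at 100 or more, 1989 wild-type and 5219 labelled Pax6 +/- cells were left, and 11 of 33 countable members were 2-fold higher, where 20.2% of all genes were, in place of 20 of 35. Those under 2-fold there were Isg15, Ifit1, Ifit3, Oasl2, Gbp2, Samhd1 and Slfn2, and Herc6 and Oas2 could no longer be counted. The ratio over all members was then 2.22 (2.21 to 2.24), and the type I ratio over all epithelial cells 1.90 (1.88 to 1.93) in place of 2.90. At that threshold the type I ratio went from 6.91 to 4.97 (4.85 to 5.09) in Krt12-high cells. In Gpha2-positive cells it went from 5.69 to 5.49 (4.86 to 6.22). It went from 2.51 to 2.58 in Krt4-positive and from 3.03 to 2.72 in Krt12-low cells. In the Krt12-low state 73 of 332 wild-type cells were left, and the Ifitm ratio went from 1.83 to 1.06.

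The difference was also read within the sexes that the library labelled Pax6 +/- holds, since the wild-type library had no cells with Y-linked UMIs alone. In its epithelium the summed members stood at 6485 CPM in 3376 cells with Xist only and at 5589 CPM in 2485 cells with Y-linked UMIs only, both above the 2084 CPM of wild-type cells. The type I sum was 1434 and 870 CPM and the type II sum 573 and 596 CPM. Of the 35 countable members, 28 were above wild type in both sets and 15 were at least 2-fold above it in both, beside 57.3% and 11.6% of all genes. Isg15 stood at 224 CPM in the Xist-only and 134 CPM in the Y-only cells, and Gbp2b at 67.8 and 49.4 CPM. Both sets lay above the wild-type cells in all 3 sums, with the type I sum lower in the Y-only cells, and sex and animal cannot be told apart here.

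Markers of other cell types were also higher in the epithelial cells labelled Pax6 +/-. The 8 immune markers summed to 4.73 CPM in wild-type and 10.8 CPM in labelled Pax6 +/- epithelium and the 7 blood-vessel markers to 3.80 and 17.9 CPM, none of either list at 0 and none at 20 CPM. The 5 lymphatic markers summed to 1.03 and 14.0 CPM, with none at 0. The 4 neutrophil markers summed to 1.51 and 24.7 CPM, with 2 and 1 at 0, and the 6 keratocyte markers to 107 and 552 CPM, with none at 0. Leaving out the epithelial cells that also passed another class's threshold, 41 and 79 cells, gave 20 of 35 members again and a ratio over all members of 2.94. The part of RNA from other cells in the remaining difference was not tested.

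In each broad class outside the epithelium the ratio over all members was below the 2.93 of all epithelial cells. By cell state this order did not hold. The ratio was 1.78 in mural cells, 1.78 in Gpha2-positive cells and 1.05 in Krt4-positive cells. In keratocytes 6 of 25 countable members were 2-fold higher and 4 were 2-fold lower, beside 8.36% and 6.57% of all genes, and the sum over all members was 4559 CPM in wild-type cells and 4116 CPM in cells labelled Pax6 +/-, a ratio of 0.90 (0.89 to 0.92). Ifitm2 was the largest part of it, at 2534 and 1839 CPM. The members that were higher were Slfn5 (4.86 and 81.6 CPM, 16.8-fold), Iigp1 (5.38 and 24.7 CPM), Isg15 (6.94 CPM in wild-type cells, 4.32-fold), Ifit1 (8.50 and 27.1 CPM), Irgm1 (17.2 and 37.7 CPM) and Samhd1 (24.8 and 50.8 CPM). Irf1, at 336 and 158 CPM, was lower, as were Trim25 (27.8 and 12.6 CPM), Ifit3b (24.3 and 10.1 CPM) and Ifit2 (84.0 and 20.2 CPM), a member named here after its values were seen. TMM scaling moved the keratocyte sum to a ratio of 1.03, which turns its direction.

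Vessel cells had the highest levels of most members in both libraries. Over 7 classes, with the vessels divided in 3, blood-vessel cells were the highest class for 18 of 47 members in the wild-type library and for 27 in the library labelled Pax6 +/-, while the epithelium was highest for 3 and 2. Iigp1, an immunity-related GTPase on chromosome 18, stood at 1257 and 1585 CPM in blood-vessel cells and Slfn5 at 816 and 1328 CPM, against 9.07 CPM of Slfn5 in epithelium labelled Pax6 +/-. Irf1 was highest in mural cells, at 1309 and 1351 CPM. Gbp3 and Irgm2, further GTPases of the type II group, had 78.7 and 156 CPM (Gbp3) and 102 and 140 CPM (Irgm2) in blood-vessel cells. Order among the small wild-type classes rests on 13 to 73 vessel cells and is uncertain where levels lie close.

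Over all vessel cells 7 of 40 countable members were 2-fold higher, beside 8.68% of all genes, and the sums were 7409 and 10596 CPM, a ratio of 1.43 (1.39 to 1.47). Among them Gbp2b had 0 and 1729 UMIs, 52.4-fold higher with the wild-type 0 set to the floor of 3 UMIs. Ifitm1 (120 and 543 CPM), Ifit1 (63.5 and 213 CPM), Ifi47 (96.8 and 241 CPM) and Isg15 (241 and 534 CPM) were others. The last were Ifi27l2a (33.3 and 68.6 CPM) and Usp18 (9 and 235 UMIs, a ratio of 2.38 with an interval of 1.23 to 5.26). In vessel cells 0 were 2-fold lower, beside 3.46% of all genes. Blood-vessel cells had 8 of 42 higher (9.85% of all genes) and 1, Cmpk2 with 8 and 21 UMIs, lower (4.33%). Mural cells had 15 of 35 higher (12.2%) and 0 lower (10.9%), and lymphatic cells 5 of 36 higher (12.1%) and 5 lower (13.4%), on 13 wild-type cells. The ratio over all members was 1.78 (1.68 to 1.89) in mural and 1.501 (1.45 to 1.56) in blood-vessel cells. The mix of vessel cells also differed, with 73 blood-vessel, 13 lymphatic and 53 mural cells in the wild-type library and 296, 157 and 490 in the other.

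In mural cells, the pericytes and smooth muscle of vessel walls, more type II than type I members passed 2-fold, although the type I sum had the larger ratio, 2.08 (1.77 to 2.45) against 1.64 (1.49 to 1.81). Of the type II group's 10 members, all countable, 7 were at least 2-fold higher, among them Gbp7 (25.6 and 139 CPM), Gbp2 (66.5 and 233 CPM) and Ifi47 (148 and 406 CPM), and the type I group had 4 of 10. Across vessel cells the type I and type II UMIs per cell, thinned to 2000, had a Pearson r of 0.46 in 131 wild-type cells and 0.60 in 891 cells labelled Pax6 +/-. Cells with 3 or more members of both groups made up 9.92% and 24.4% of them, and these cell-level values are descriptions that depend on which vessel types each library held.

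Glial and immune cells were few. In glial cells 5 of 37 members were 2-fold higher and 3 lower, beside 14.9% and 9.46% of all genes. The sum was 3992 and 4297 CPM, a ratio of 1.08 with an interval of 0.998 to 1.16, which spans 1. Gbp2b (0 and 254 UMIs) and Isg15 (46.7 and 133 CPM) were higher, while Ifi27l2a, steeply higher in epithelium, was lower, at 171 and 77.4 CPM, a ratio of 0.45 (0.30 to 0.69). In immune cells 12 of 40 were 2-fold higher and 3 lower, beside 13.5% and 17.9% of all genes, and the sum was 3532 and 4745 CPM, a ratio of 1.34 (1.23 to 1.47). Ifi44 (1 and 83 UMIs, a ratio of 16.9 with an interval of 2.95 to 675) and Ifitm3 (314 and 718 CPM, 2.29-fold) were among them. The 4 neutrophil markers summed to 601 CPM in the 34 wild-type and 42.1 CPM in the 105 labelled Pax6 +/- immune cells, with 1 and 3 of them at 0, and the part of this difference in the members' ratios was not tested.

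**Figure D5:**
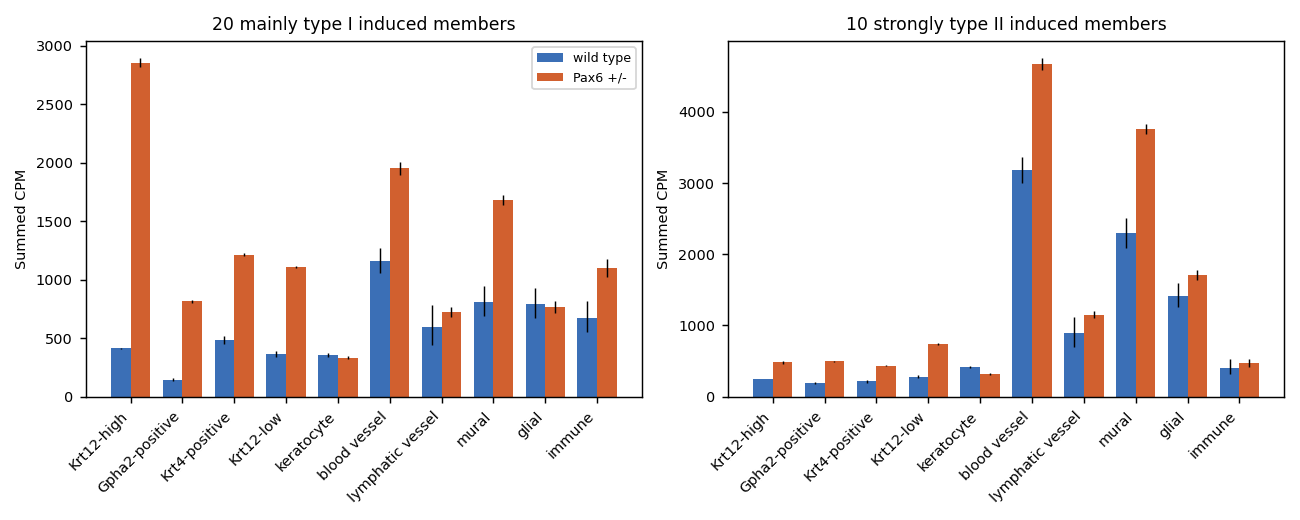
Summed CPM of the 20 type I members (left) and the 10 type II members (right) by cell class and library, with exact 95% Poisson intervals as error bars. The type I sum is highest in Krt12-high cells labelled Pax6 +/- (2857 CPM; in cells with Y-linked UMIs only it was 1660 CPM there and 1933 CPM in blood-vessel cells), and the type II sum is highest in blood-vessel cells of both libraries (3177 and 4674 CPM).

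The rest of the pathway was read in epithelium from a list of 52 genes, of which 49 were in the matrices. Of 10 interferon genes none reached 20 CPM. Ifnk had 1 UMI in the wild-type and 23 UMIs in the other library, Ifnl3 0 and 16, and Ifnl2 0 and 3. The other 7, Ifnb1 and Ifng among them, had 0 in both. The floor of 3 UMIs stands for 0.027 CPM in wild-type and 0.029 CPM in labelled Pax6 +/- epithelium. Among 4 countable receptor genes, Ifnar2, a chain of the type I receptor, was at 33.0 and 67.6 CPM (2.05-fold), and the interferon gamma receptor chains Ifngr1 and Ifngr2 had ratios of 1.59 and 1.20. None of 7 countable signal transducers passed 2-fold in either direction, with Socs1 at 25.7 and 44.1 CPM and Socs3 at 626 and 354 CPM. Receptor and transducer levels thus mostly differed by less than 2-fold. Ifng UMIs were found in immune cells, 3 wild-type and 1 from the other library.

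The sensor Cgas stood at 10.8 and 24.1 CPM and its adaptor Tmem173 (STING) at 0.99 and 22.2 CPM, a ratio of 22.4 (18.5 to 27.4). So large a ratio was not general to the states. The highest log2 ratio of a countable sensor was 4.49 over all epithelial cells and 4.47 in Krt12-low cells. It was 1.16 in Krt12-high, 1.43 in Gpha2-positive and 1.28 in Krt4-positive cells. Of 10 countable antigen presentation genes 8 were 2-fold higher, including the class I light chain B2m (120 and 957 CPM, 7.96-fold), the heavy chains H2-K1 (254 and 750 CPM) and H2-D1 (179 and 496 CPM), the class I activator Nlrc5 (5.23 and 45.5 CPM), the transporter genes Tap1 (22.8 and 51.5 CPM) and Tap2 (26.9 and 54.3 CPM), and the immunoproteasome subunits Psmb8 (52.7 and 122 CPM) and Psmb9 (38.3 and 87.1 CPM). Over all genes 13.2% were 2-fold higher in epithelium. By state, 9 of 10 countable presentation genes were 2-fold higher in Krt12-high, 8 of 10 in Gpha2-positive and 8 of 11 in Krt12-low cells. In Krt4-positive cells 2 of 9 were. The shares of all genes were 8.47%, 7.05%, 9.25% and 20.1% in that order. The class II genes and the chemokines Cxcl9 and Cxcl10, which draw T cells, stayed under 20 CPM in epithelium of both libraries. Cxcl10 was found mainly outside it, at 356 and 697 CPM in vessel cells, while immune cells had 534 and 36.7 CPM from 80 and 27 UMIs.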

How the data were processed

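The matrices deposited by the authors hold raw counts, UMIs per gene and barcode, made with Cell Ranger 8.0.0 per the file headers and on GRCm38 per the submitters' processing notes. They held 11354 wild-type barcodes with 124540296 UMIs and 10574 with 131567589 UMIs in the library labelled Pax6 +/-. Barcodes were kept from 500 genes and 1000 UMIs upward and up to a mitochondrial share of 20%. Scrublet (scanpy 1.11.5) marked 11 (0.108%) and 57 (0.597%) cells; so low a wild-type share was taken as a failed call, and no cells were removed as doublets. Cells below the keratin threshold were classed by summed markers per 10000 UMIs (keratocytes 100, others 20; Gpha2 5, Krt4 10, Krt12 100), thresholds set after the distributions were seen. No class took 704 and 489 cells, and 3 and 41 passed 2.

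UMIs were summed per class and expressed as CPM without mitochondrial genes (numpy 2.4.6, scipy 1.17.1). Intervals are 95%, Poisson, conditional binomial or Clopper-Pearson, and a count of 0 was set to 3 UMIs for bounds. That floor is a setting and not a 95% limit. Members were counted at 2-fold among those with at least 20 CPM in either library. The code was tested on simulated data. Members were named at 20 CPM in epithelium or 100 CPM in another broad class, which took 39. edgeR 4.0.16 and DESeq2 1.42.0 gave other scalings only. The members and lists were chosen with earlier results of these data known.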

Additional observations from a re-analysis of the deposited data

Results flagged for a closer look

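Several values moved in opposite directions between cell classes; these differences were not tested. Ifi27l2a had a ratio of 0.452 in glial cells, where it was lower in the library labelled Pax6 +/-, beside 13.8 in epithelial and 2.06 in vessel cells. The summed members had a ratio of 0.903 in keratocytes beside 2.93 in epithelial cells. A signal also appeared in cells that no comparison used: the 489 cells labelled Pax6 +/- that passed no class threshold had a median of 18.9 member UMIs per 10000, above the 10.7 of the 704 such wild-type cells.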

How the results depend on the processing

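No paired analysis was possible because each genotype has 1 library. The epithelial count of 20 members fell to 11 with the keratin threshold at 100 and to 13 with only Y-positive, Xist-negative cells labelled Pax6 +/-, and was 14 to 29 under 10 other settings. The keratocyte count of 6 was 2 at 50 CPM and 11 with no filter. The glial count of 5 was 9 with the keratin threshold at 100 and 8 with Y-positive cells only. Vessel (5 to 8) and immune (9 to 15) counts stayed within 1.5 times. The share of all genes was counted for 1 of these other settings, epithelium with the keratin threshold at 100 (20.2%). The other counts are given without it. The epithelial sum ratio of 2.93 was 2.33 (TMM), 2.30 (DESeq2 size factors), 2.22 (keratin threshold at 100), 3.11 (Xist-only cells), 2.68 (Y-only cells), 2.90 (without the highest doublet scores), 1.82 (without the Ifitm genes, which are also the 3 members with most UMIs), 2.30 (median member) and 1.68 (4 epithelial states weighted equally). The type II minus type I difference of 1.03 was 1.25 with GTPases alone, and by state -0.081, -0.51, 0.62 and 1.25, reversed in Krt12-high and Gpha2-positive cells. Shares of cells were higher for 32 of 35 members, and for 31 after thinning. The like count over all genes was not made. Without thinning, the median epithelial depth was also unequal, at 11294 (wild type) and 14175 UMIs (labelled Pax6 +/-). The settings with Y-positive cells, equal weights, single states and without cells passing a second threshold were chosen after seeing the data.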
